A study of Homo sapiens with 21 samples.

Results

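Voltage-gated calcium and sodium channel genes were described in the SH-SY5Y line, which comes from a human neuroblastoma of sympathetic origin and serves as a model of neurons. The genes were chosen by symbol alone, as the calcium channel families CACNA1, CACNA2D, CACNB and CACNG and the sodium channel families of alpha and beta subunits, and 37 of the 18132 genes measured on the arrays had such a symbol. They were 10 calcium channel alpha1 genes, 4 alpha2delta genes, 3 beta genes, 8 gamma genes, 9 sodium channel alpha genes and 3 sodium channel beta genes. Each gene was read by 1 probe set, the one with the highest mean over all 21 arrays.

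The cells were wild type (WT) or carried APP-V717F, an amyloid precursor protein mutation known from familial Alzheimer's disease (APP). All cells had first been differentiated over 3 to 4 days, with retinoic acid at 10 µM and BDNF at 50 ng/mL, and were then given a drug, or 0.1% DMSO as vehicle, over 72 h. There were 7 groups of 3 arrays: APP cells with AG494, NOSCA or DMSO (APP_AG494, APP_NOSCA and APP_DMSO) and WT cells with PALBO, AG494, NOSCA or DMSO (WT_PALBO, WT_AG494, WT_NOSCA and WT_DMSO). AG494 blocks the tyrosine kinase of the EGF receptor, NOSCA and PALBO are named as in the labels, and the labels give no doses. APP cells with PALBO were not analysed here. The mutation is represented by 1 cell line, so that the mutation cannot be told apart from any other difference between the lines. The label titles number the arrays in 3 runs with 1 array of each group in each, and values are listed below in the order of these runs.

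In a voltage-gated calcium channel the alpha1 subunit forms the pore and sets the type of current, while alpha2delta and beta subunits carry the channel to the membrane and tune its opening. Several gamma subunits are better known as partners of AMPA glutamate receptors. Sodium channel alpha subunits form the pore that starts the action potential, and the beta subunits, adhesion proteins of the immunoglobulin type, modify its gating. In neurons these channels link electrical activity to transmitter release and to calcium-dependent transcription.

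All values are log2 intensities, and a difference of 1 is a doubling. Differences were tested with limma over all genes and called at a Benjamini-Hochberg adjusted p below 0.05. Array medians lay between 7.877 and 8.03, and the number of arrays limits the precision. None of 17 measured noradrenergic neuroblast genes was among the dim genes, here the 6044 genes with a mean of at most 6.62 over all arrays, in contrast to 7 of 9 immune genes, PTPRC among them, and 7 of 9 muscle genes, MYOD1 and MYOG among them. Of the glial genes ERBB3, CDH19, FABP7 and MBP were dim, and SOX10, S100B and GFAP were not. Of the mesenchymal genes 2 of 12 were dim. Bulk RNA cannot tell fewer cells of a type from less RNA per cell, and nothing in the labels says whether the arrays of a group came from separate cultures beyond the statement of independent experiments.

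Promoters are printed for the channel genes that were called in all 3 comparisons between the lines (CACNA2D3 and SCN9A) or in all 3 comparisons of PALBO with other WT groups (CACNA1B, CACNB1 and SCN4B), so that the region in front of the genes described most fully can be read. Each runs from 250 bases before to 50 bases after the gene's start in RefSeq (GRCh38.p14), given 5′ to 3′ on the gene's strand, with matches to the motifs GGGCGG (GC box), CCAAT and CAGCTG (an E-box) on either strand in capitals. CACNA2D3 lies at chr3:54122302-54122601 on the plus strand, SCN9A at chr2:166375895-166376194 on the minus strand, CACNA1B at chr9:137877532-137877831 on the plus strand, CACNB1 at chr17:39197620-39197919 on the minus strand and SCN4B at chr11:118145384-118145683 on the minus strand.
CACNA2D3: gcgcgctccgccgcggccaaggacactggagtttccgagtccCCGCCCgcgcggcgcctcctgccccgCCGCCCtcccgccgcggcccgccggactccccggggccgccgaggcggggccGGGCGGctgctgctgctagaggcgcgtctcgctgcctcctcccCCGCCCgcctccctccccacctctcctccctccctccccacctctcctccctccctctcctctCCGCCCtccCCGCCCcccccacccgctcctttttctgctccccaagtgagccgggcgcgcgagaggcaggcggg
SCN9A: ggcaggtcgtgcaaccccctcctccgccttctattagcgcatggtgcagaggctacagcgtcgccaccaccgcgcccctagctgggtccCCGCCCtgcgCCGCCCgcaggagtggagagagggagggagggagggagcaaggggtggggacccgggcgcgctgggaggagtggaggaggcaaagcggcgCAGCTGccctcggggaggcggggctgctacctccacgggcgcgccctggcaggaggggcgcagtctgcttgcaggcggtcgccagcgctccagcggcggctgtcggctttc
CACNA1B: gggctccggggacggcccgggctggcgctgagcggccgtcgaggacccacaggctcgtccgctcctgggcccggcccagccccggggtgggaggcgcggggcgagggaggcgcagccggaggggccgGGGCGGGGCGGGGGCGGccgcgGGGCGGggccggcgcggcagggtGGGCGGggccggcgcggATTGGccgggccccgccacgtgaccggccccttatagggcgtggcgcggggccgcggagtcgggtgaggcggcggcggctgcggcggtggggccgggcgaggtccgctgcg
CACNB1: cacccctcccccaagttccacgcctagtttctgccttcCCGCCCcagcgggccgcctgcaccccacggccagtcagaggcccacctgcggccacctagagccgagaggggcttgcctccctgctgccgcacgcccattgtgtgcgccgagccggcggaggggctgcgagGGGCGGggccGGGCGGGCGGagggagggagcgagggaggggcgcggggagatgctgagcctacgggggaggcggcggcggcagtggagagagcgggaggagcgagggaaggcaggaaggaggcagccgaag
SCN4B: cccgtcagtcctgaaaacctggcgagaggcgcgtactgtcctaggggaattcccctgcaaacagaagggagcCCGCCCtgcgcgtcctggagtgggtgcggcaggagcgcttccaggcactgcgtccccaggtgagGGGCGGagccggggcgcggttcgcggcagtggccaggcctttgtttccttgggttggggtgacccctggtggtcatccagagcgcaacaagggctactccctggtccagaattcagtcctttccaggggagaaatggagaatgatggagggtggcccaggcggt

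The CACNA2D3 stretch held 6 GC boxes, that of CACNA1B 5 GC boxes and a CCAAT box, that of CACNB1 4 GC boxes, and those of SCN9A and SCN4B 2 GC boxes each, with an E-box in SCN9A. Their GC content was 79.0%, 85.3%, 74.7%, 73.3% and 64.7% in that order. Over the 25 channel genes with a promoter in the table, the median GC content was 65.7%, against 58.3% over all 27305 promoters. A GC box was found in 17 of the 25 (68.0%) and in 44.6% of all promoters, a CCAAT box in 8 (32.0%) and 35.7%, and this E-box in 4 (16.0%) and 17.7%. The cAMP response element TGACGTCA and the E2F motifs TTTCGCGC, TTTGGCGC and TTTCCCGC had no match in the 25, and were found in 1.98% and 2.79% of all promoters. These matches describe the letters of a short window and show no bound factor.

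The means of the channel genes over all arrays ran from 4.62 for SCN7A to 11.83 for CACNA2D2. Of the 37 genes, 14 were among these dim genes, where a difference in RNA is hard to see: CACNA1F, CACNA1G, CACNA1H, CACNA1S, CACNA2D4, CACNG1, CACNG2, CACNG3, CACNG5, SCN10A, SCN11A, SCN1A, SCN4A and SCN7A. Several of these are known from other tissues, such as CACNA1S, CACNG1 and SCN4A from skeletal muscle, CACNA1F from the retina and SCN10A and SCN11A from sensory neurons. Among the genes with high intensity were CACNA2D2, CACNA2D1 (11.56), CACNG4 (11.28), CACNG7 (10.85), SCN9A (10.83) and SCN3B (10.72), although intensities of different probe sets give no order of RNA amounts. These 6 genes lay between percentiles 78.5 and 91.7 of all genes.

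Most channel genes differed little between the groups. The range of the 7 group means was below 0.3 in 20 of 37 channel genes (54.1%), against 62% of all genes, and its median was 0.29, against 0.25 over all genes. A range of at least 1 was seen in 3 channel genes (8.11%, against 3.81% of all genes): CACNA2D3 with 3.19, SCN9A with 1.69 and SCN4B with 1.37. Small ranges were found for CACNA1A, the pore of P/Q-type channels (0.16), CACNB3, a beta subunit of neuronal channels (0.16), CACNA1E, the R-type pore (0.20), CACNG7 (0.22) and SCN8A, the sodium channel of axon initial segments and nodes (0.28). In the 13 comparisons between lines, treatments and their interactions, 13 of 37 channel genes were called at least once (35.1%, against 26.9% of all genes) and 24 in none. Of these 24, 5 were called with a replicate block for the title run: CACNA2D2, CACNG7, SCN11A, SCN2B and SCN3B. The largest difference in size among the 24 was 0.49, that of SCN2B in the NOSCA interaction. CACNG6, a gamma gene known from muscle, was among the 24 by its brighter probe set, which differed by 0.08 in APP_DMSO over WT_DMSO. That probe set is of a kind that can also bind related transcripts. The other CACNG6 probe set had a dim mean of 5.84 and was called higher in APP cells when probe sets were tested on their own. It differed by 0.78 with DMSO (adjusted p = 0.000187), 0.44 with AG494 (adjusted p = 0.0253) and 0.66 with NOSCA (adjusted p = 0.00128).

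**Figure D1:**
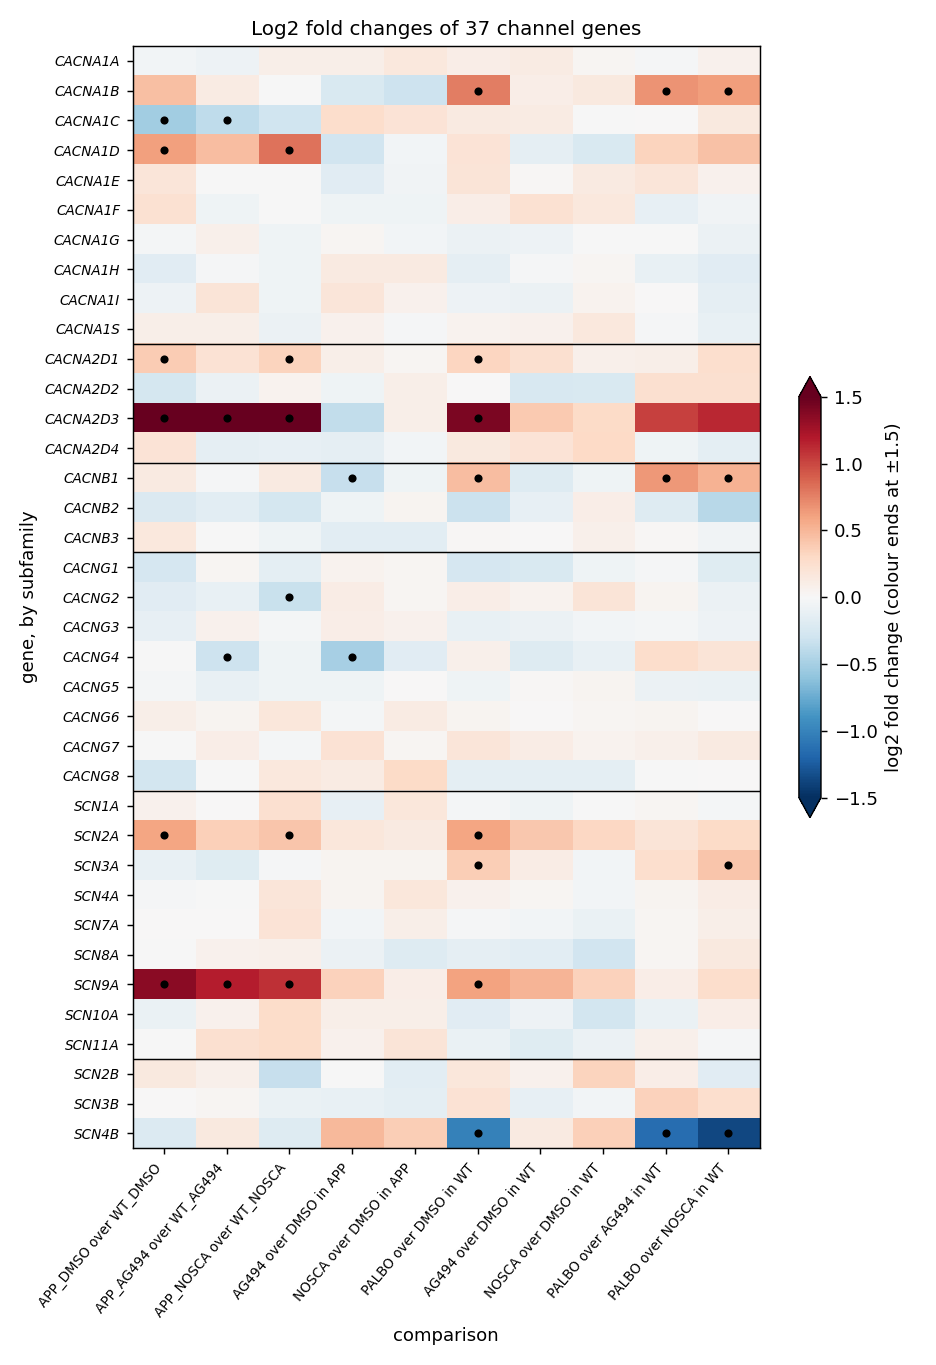
Differences in log2 intensity of the 37 channel genes (down the page, by subfamily) in the comparisons between lines and between treatments (across), with colours that end at -1.5 and 1.5 and black dots where limma's adjusted p was below 0.05. The strongest colours lie in CACNA2D3 and SCN9A between the lines and in CACNA2D3 and SCN4B under PALBO.

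Between the lines, APP cells had higher intensities of the alpha2delta genes CACNA2D3 and CACNA2D1, the L-type pore CACNA1D and the sodium channel pores SCN9A and SCN2A, and a lower intensity of the L-type pore CACNA1C. These 6 of 37 genes (16.2%) were called in APP_DMSO against WT_DMSO, 5 higher and 1 lower, while 9.25% of all 18132 genes were called in this comparison (5.2% higher and 4.05% lower). Under NOSCA 6 genes were called (16.2%, with 5 higher and 1 lower), beside 7.2% of all genes (3.56% higher and 3.65% lower). Under AG494 4 genes were called (10.8%, with 2 higher and 2 lower), beside 9.02% of all genes (4.1% higher and 4.92% lower). With the run of title numbers as a replicate block the counts were 8, 9 and 7 genes, beside 17.4%, 14.8% and 16.9% of all genes. The block added CACNA1B under DMSO (0.45, adjusted p = 0.00332, and 0.0545 without the block), and CACNB2 (-0.26, adjusted p = 0.0387, and 0.247 without it) and SCN2B, a sodium channel beta subunit (-0.34, adjusted p = 0.0289, and 0.251 without it), under NOSCA. The median difference under DMSO was -0.01 over the 37 genes and 0.02 over all genes.

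CACNA2D3, an alpha2delta subunit known from spinal cord, brain and hearing, showed the largest difference of the 37 genes. Its intensities were 9.36, 9.60 and 9.73 in APP_DMSO, against 5.91, 6.27 and 7.19 in WT_DMSO. All APP arrays lay above all WT arrays, and in each of the 7 groups the array of the first run was the lowest and that of the third the highest. The difference was 3.11 (SE 0.36, 95% interval 2.36 to 3.85, adjusted p = 7.55e-06), an 8.62-fold higher intensity, and it was 3.45, 3.34 and 2.53 within the 3 runs. The WT_DMSO mean of 6.46 lay below 6.62, the bound of the dim genes, so that the size of the fold is uncertain. A second probe set of the gene differed by 2.61.

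The line difference of CACNA2D3 was also present under the drugs. In APP_AG494 the values were 8.97, 9.27 and 9.34, against 6.18, 6.88 and 7.48 in WT_AG494. In APP_NOSCA they were 9.46, 9.65 and 9.82, against 6.31, 6.44 and 7.47 in WT_NOSCA. No APP array overlapped a WT array in either pair. The differences were 2.35 with AG494 (SE 0.36, adjusted p = 0.000197) and 2.90 with NOSCA (SE 0.36, adjusted p = 2.05e-05). The AG494 effect in APP cells minus that in WT cells was -0.76 (95% interval -1.82 to 0.30, adjusted p = 0.833). Within the 3 runs it was -0.67, -0.94 and -0.67, and with the replicate block the SE fell to 0.27, against 0.50 without it, while the adjusted p of 0.197 did not pass either. By group mean the order was APP_NOSCA (9.65), APP_DMSO (9.56), APP_AG494 (9.20), WT_PALBO (7.87), WT_AG494 (6.85), WT_NOSCA (6.74) and WT_DMSO (6.46), with SDs of 0.18 to 0.20 in APP groups and 0.58 to 0.67 in WT groups.

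CACNA2D1, an alpha2delta subunit that binds gabapentin, differed less. It measured 11.59, 11.78 and 11.63 in APP_DMSO, against 11.19, 11.28 and 11.38 in WT_DMSO. The groups did not overlap. The difference was 0.38 (SE 0.08, adjusted p = 0.00399). Under NOSCA it was 0.33 (adjusted p = 0.0135), a call lost without APP_NOSCA replicate 2 (adjusted p = 0.0811) or WT_NOSCA replicate 3 (adjusted p = 0.0644). Under AG494 it was 0.22 and did not pass (adjusted p = 0.0978, and 0.0187 with the replicate block). CACNA2D2, the third alpha2delta gene with a clear signal, differed by -0.26 under DMSO (adjusted p = 0.35, and 0.0217 with the block).

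Of the L-type pores, CACNA1D was higher in APP cells and CACNA1C lower. CACNA1D, known for pacemaking and secretion in neurons and endocrine cells, measured 9.36, 9.37 and 9.62 in APP_DMSO, against 8.48, 8.59 and 9.42 in WT_DMSO. The WT_DMSO array of the third run lay within the range of the APP_DMSO arrays. The difference was 0.62 (SE 0.19, adjusted p = 0.0476), with 0.88, 0.78 and 0.20 in the 3 runs. The call was lost without any 1 of 5 of the 6 arrays (adjusted p from 0.0798 to 0.226), the exception being WT_DMSO replicate 3. It was also lost after centring on array medians (adjusted p = 0.0674), after quantile normalisation (0.0702) and in a fit on these 6 arrays alone (0.217), where the call of CACNA2D1 was lost too (0.0671). All 4 probe sets of CACNA1D had a positive difference in APP_DMSO, and 3 were called when probe sets were tested on their own.

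Under NOSCA CACNA1D measured 9.38, 9.43 and 9.41 in APP_NOSCA, against 8.52, 8.40 and 8.88 in WT_NOSCA. Here the groups were apart. The difference was 0.81 (SE 0.19, adjusted p = 0.0114, and 0.0698 without WT_NOSCA replicate 2). Under AG494 it was 0.46 and did not pass (adjusted p = 0.162, and 0.0155 with the block).

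CACNA1C, the L-type pore of heart, smooth muscle and brain, measured 6.30, 6.44 and 6.62 in APP_DMSO, against 6.89, 7.08 and 6.96 in WT_DMSO. All APP_DMSO arrays were below all WT_DMSO arrays. It fell by 0.52 (SE 0.11, adjusted p = 0.00348), and its level in APP_DMSO was near 6.62, the bound of the dimmest genes. Of its 8 probe sets all 8 were lower in APP_DMSO and 1 was called, the others differing by -0.23 to -0.04, and the mean of the 8 differed by -0.20 and was called. Under AG494 the difference was -0.38 (adjusted p = 0.0318), a call lost without WT_AG494 replicate 1 or 2 or APP_AG494 replicate 1 or 3 (adjusted p from 0.101 to 0.126) and with the mean of its probe sets (-0.14, adjusted p = 0.148). Under NOSCA it was -0.30 and did not pass (adjusted p = 0.109, and 0.0283 with the block).

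SCN9A, the sodium channel pore known from sympathetic and pain-sensing neurons, was higher in APP cells in all 3 comparisons. It measured 11.27, 11.33 and 11.38 in APP_DMSO, against 9.72, 10.00 and 10.22 in WT_DMSO. In APP_AG494 it measured 11.69, 11.65 and 11.69, against 10.51, 10.31 and 10.66 in WT_AG494. In APP_NOSCA it measured 11.44, 11.33 and 11.52, against 10.48, 10.13 and 10.38 in WT_NOSCA. Every APP array lay above every WT array, including those with PALBO. The differences were 1.35 with DMSO (SE 0.12, adjusted p = 2.03e-07), 1.18 with AG494 (adjusted p = 1.08e-06) and 1.10 with NOSCA (adjusted p = 3.4e-06). The DMSO difference was a 2.55-fold higher intensity, and the second probe set of SCN9A differed by 1.10.

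SCN2A, a sodium channel pore of central neurons, differed in the same direction by less. It measured 8.94, 8.79 and 8.77 in APP_DMSO, against 8.30, 7.96 and 8.45 in WT_DMSO. The groups were apart. The difference was 0.60 (SE 0.13, adjusted p = 0.00406), and 0.64, 0.83 and 0.32 in the 3 runs. Under NOSCA it was 0.42 (adjusted p = 0.049), a call lost without any 1 of 5 of the 6 arrays (adjusted p from 0.0643 to 0.23), the exception being APP_NOSCA replicate 2. Under AG494 it was 0.36 and did not pass (adjusted p = 0.091, and 0.0176 with the block). SCN3A, the neighbour of SCN2A on chromosome 2 and a pore of embryonic brain, differed by -0.11 under DMSO and was not called in any line comparison.

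**Figure D2:**
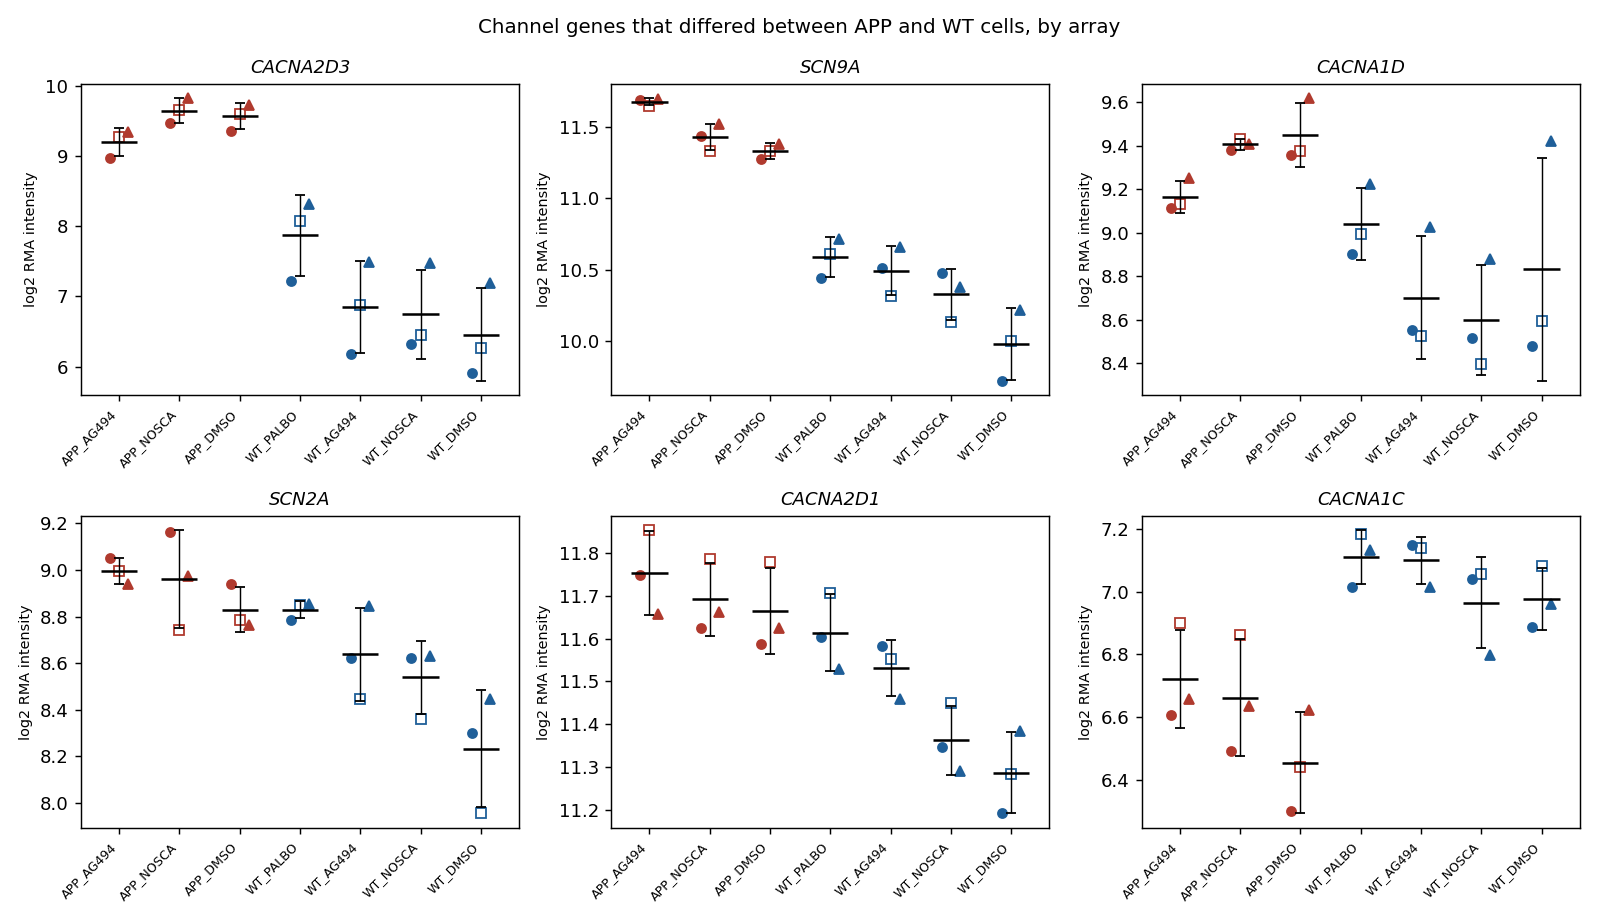
Log2 intensity on each array for channel genes that differed between the lines, with APP groups in red and WT groups in blue, circles, open squares and triangles for the 3 title runs, black lines for group means and bars for the SD. For CACNA2D3 and SCN9A all APP arrays lie above all WT arrays; CACNA1C lies lower in APP_DMSO than in WT_DMSO.

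Gamma subunits were called under a drug. CACNG4, a partner of AMPA receptors, measured 10.85, 10.96 and 10.90 in APP_AG494, against 11.30, 11.18 and 11.17 in WT_AG494. The groups were apart, with a difference of -0.31 (SE 0.07, adjusted p = 0.00847, and 0.0576 without WT_AG494 replicate 1). Beside it, 10 of 12 proliferation genes were lower and 0 higher in APP_AG494 than in WT_AG494, against 9.02% of all genes called. The part of the proliferation genes in the channel differences was not tested. CACNG2, the gene of stargazin, was dim on all arrays and measured 4.86, 5.04 and 5.07 in APP_NOSCA, against 5.36, 5.33 and 5.27 in WT_NOSCA. The difference was -0.34 (SE 0.09, adjusted p = 0.0217), and the call was lost without WT_NOSCA replicate 1 or 2 or APP_NOSCA replicate 1 (adjusted p from 0.0724 to 0.116).

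Averaged over DMSO, AG494 and NOSCA, with 9 APP arrays against 9 WT arrays, 9 channel genes were called (24.3%), 5 higher and 4 lower, beside 22% of all genes (12.1% higher and 9.91% lower). The higher ones were CACNA2D3 by 2.79 (SE 0.21, adjusted p = 6.13e-09), SCN9A by 1.21 (adjusted p = 1.04e-10), CACNA1D by 0.63 (adjusted p = 0.000275), SCN2A by 0.46 (adjusted p = 0.000102) and CACNA2D1 by 0.31 (adjusted p = 4.91e-05). The lower ones were CACNA1C (-0.40, adjusted p = 8.34e-05), CACNG2 (-0.21, adjusted p = 0.0048), CACNB2 (-0.21, adjusted p = 0.0374) and CACNG4 (-0.13, adjusted p = 0.0354). CACNB2 encodes a beta subunit known from heart and brain. The means of CACNG4 were close under DMSO, with 11.40 in APP_DMSO and 11.41 in WT_DMSO. Under NOSCA they were 11.23 in APP_NOSCA and 11.30 in WT_NOSCA, and its largest line difference was that under AG494. The calls of CACNB2 and CACNG4 were each lost on leaving out any 1 of 10 of the 18 arrays (adjusted p up to 0.0838 and 0.0792). That of CACNB2 was also lost with the mean of its probe sets (-0.14, adjusted p = 0.0641). With the replicate block 11 channel genes were called, beside 32.1% of all genes, the added ones being CACNA1B (0.19, adjusted p = 0.0162, and 0.121 without it) and SCN11A, a dim sodium channel pore (0.17, adjusted p = 0.0187, and 0.115 without it).

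Marker genes of other kinds were called in the same averaged comparison, beside 22% of all genes (32.1% with the replicate block). Of 12 proliferation genes 11 were lower in APP cells and 0 higher, although in APP_DMSO over WT_DMSO alone 0 of the 12 were called (1 with the replicate block, lower). Of 17 noradrenergic neuroblast genes 5 were higher and 4 lower, and of 12 mesenchymal genes 1 was higher and 6 lower (2 and 6 with the block). In APP_DMSO alone these counts were 4 and 2 for the noradrenergic genes and 1 and 5 for the mesenchymal genes, beside 9.25% of all genes. Their part in the channel differences was not tested.

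PALBO in WT cells went with higher intensities of the N-type pore CACNA1B, the beta subunit CACNB1, the alpha2delta genes CACNA2D3 and CACNA2D1 and the sodium channel pores SCN9A, SCN2A and SCN3A, and with a lower intensity of the sodium channel beta subunit SCN4B. These were 8 of 37 channel genes (21.6%), 7 higher and 1 lower, in WT_PALBO against WT_DMSO, where 6.98% of all genes were called (3.11% higher and 3.87% lower). The median difference was 0.07 over the 37 genes and 0.00 over all genes. With the replicate block 9 were called, beside 15.1% of all genes, CACNB2 being the added one (-0.32, adjusted p = 0.013, and 0.137 without the block). Fitted on the WT_PALBO and WT_DMSO arrays alone, 2 of the 8 genes were called, CACNA1B and SCN2A, while the adjusted p of the other 6 lay between 0.0577 and 0.13. The share of all genes called in that fit is not given here.

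CACNA1B, the pore of N-type channels, which trigger transmitter release at many nerve endings, measured 8.95, 9.29 and 9.50 in WT_PALBO, against 8.25, 8.56 and 8.63 in WT_DMSO. The groups were apart and the difference was alike in the runs (0.70, 0.73 and 0.87). It was 0.77 (SE 0.14, adjusted p = 0.00197), a 1.71-fold higher intensity, and both probe sets of CACNA1B were called in this comparison. Against the other drugs it was 0.67 over WT_AG494 (adjusted p = 0.0106) and 0.63 over WT_NOSCA (adjusted p = 0.0164). The second probe set was also called over WT_AG494 (0.42, adjusted p = 0.0444) but not over WT_NOSCA (0.14, adjusted p = 0.811). With the probe set chosen for the gene, the calls over WT_AG494 and WT_NOSCA were both lost without WT_PALBO replicate 3 (adjusted p = 0.0826 and 0.122). That over WT_AG494 was also lost without WT_AG494 replicate 1 or 2 (adjusted p = 0.0699 and 0.0539), and that over WT_NOSCA without WT_NOSCA replicate 1 or 2 or WT_PALBO replicate 2 (adjusted p from 0.0584 to 0.0643).

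CACNB1, a beta subunit first known from skeletal muscle and also made in neurons, measured 9.17, 9.48 and 9.24 in WT_PALBO, against 8.72, 8.84 and 8.95 in WT_DMSO. Every WT_PALBO array was above every other array of the study for this gene. The difference was 0.46 over WT_DMSO (SE 0.10, adjusted p = 0.00522), 0.65 over WT_AG494 (adjusted p = 0.00065) and 0.52 over WT_NOSCA (adjusted p = 0.00411). Of the 4 probe sets of CACNB1, 3 were higher in WT_PALBO than in WT_DMSO and 1 was called, the other 3 differing by -0.02 to 0.39.

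SCN4B, a beta subunit that binds covalently to the alpha subunit and shapes resurgent sodium current, was the 1 channel gene that fell. It measured 6.00, 6.15 and 5.82 in WT_PALBO, against 7.30, 7.49 and 6.22 in WT_DMSO. The WT_PALBO arrays were all below the WT_DMSO arrays, but the third WT_DMSO array was near them, and the within-run differences were -1.30, -1.34 and -0.39. The difference was -1.01 (SE 0.24, adjusted p = 0.011). SCN4B had 1 probe set, and all its WT_PALBO values lay below 6.62, the bound of the dim genes, so that the size of the fall is uncertain. The call was lost without WT_DMSO replicate 1 (adjusted p = 0.0638), WT_DMSO replicate 2 (0.0722) or WT_PALBO replicate 3 (0.0556). SCN4B measured 7.00, 7.21 and 7.21 in WT_AG494 and 7.51, 7.72 and 6.84 in WT_NOSCA. The WT_PALBO values were below these as well, by -1.15 over WT_AG494 (adjusted p = 0.00855, and 0.0545 without WT_PALBO replicate 3) and -1.37 over WT_NOSCA (adjusted p = 0.00237). SCN2B, which lies next to SCN4B on chromosome 11, was not called under PALBO.

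**Figure D3:**
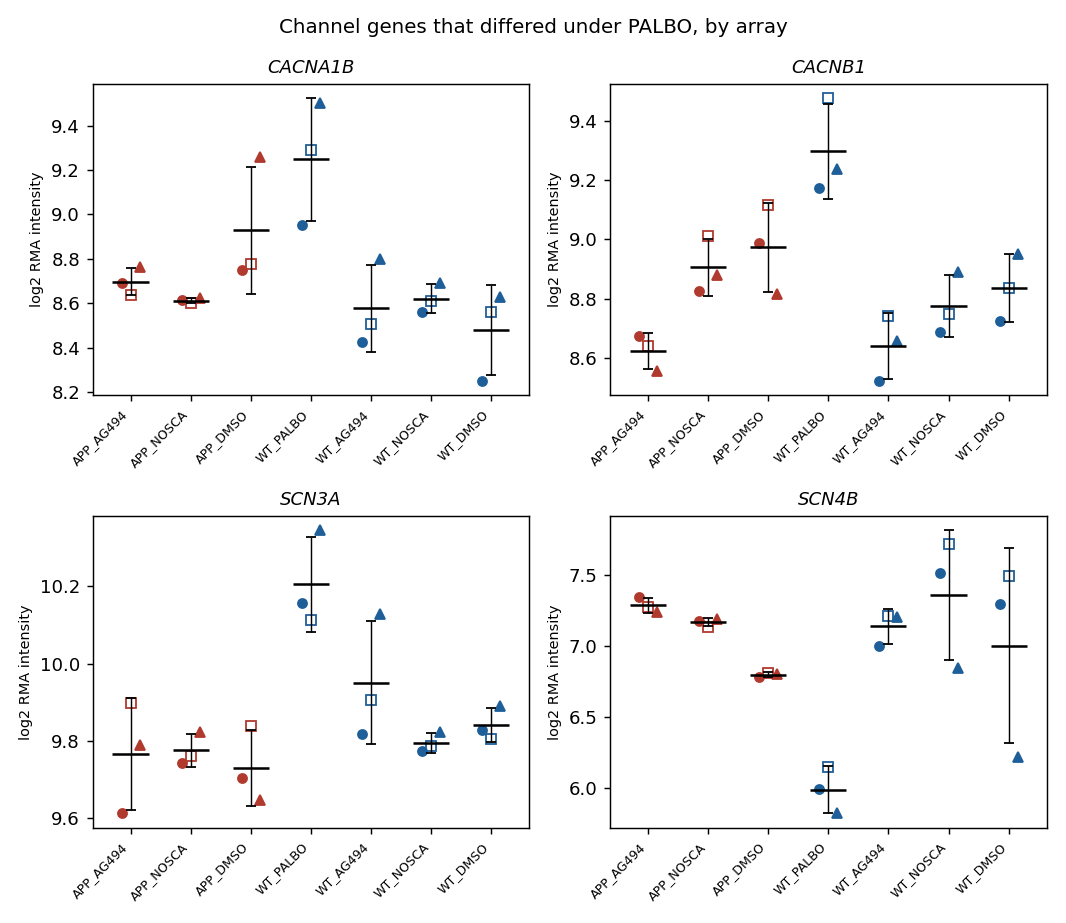
Log2 intensity on each array of CACNA1B, CACNB1, SCN3A and SCN4B, with symbols as in the plot of line differences. The WT_PALBO arrays of CACNB1 lie between 9.17 and 9.48, above all others, and those of SCN4B between 5.82 and 6.15, below all others.

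Sodium channel pores were higher under PALBO as well. SCN9A measured 10.45, 10.61 and 10.72 in WT_PALBO, against 9.72, 10.00 and 10.22 in WT_DMSO, a difference of 0.61 (SE 0.12, adjusted p = 0.00263). SCN2A measured 8.79, 8.85 and 8.85 in WT_PALBO, against 8.30, 7.96 and 8.45 in WT_DMSO, a difference of 0.60 (SE 0.13, adjusted p = 0.00544). In neither gene did the groups overlap. SCN3A measured 10.16, 10.11 and 10.35 in WT_PALBO, against 9.83, 9.81 and 9.89 in WT_DMSO, a difference of 0.36 (SE 0.09, adjusted p = 0.0143). Its probe set is of a kind that can also bind related transcripts, and its other probe sets differed by 0.43 and 0.46 without being called. The SCN3A call was lost without WT_DMSO replicate 2 (adjusted p = 0.0543) or WT_PALBO replicate 3 (adjusted p = 0.0897).

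The sodium channel pores were also set against the other drugs. SCN3A was higher in WT_PALBO than in WT_NOSCA by 0.41 (adjusted p = 0.0114, and 0.085 without WT_PALBO replicate 3) and than in WT_AG494 by 0.25 (adjusted p = 0.153, and 0.0466 with the block). SCN9A was 0.10 above WT_AG494 (95% interval -0.15 to 0.34, adjusted p = 0.903) and 0.26 above WT_NOSCA (adjusted p = 0.368). SCN2A was 0.19 above WT_AG494 (95% interval -0.07 to 0.46, adjusted p = 0.646) and 0.29 above WT_NOSCA (adjusted p = 0.339). For SCN9A and SCN2A a difference between PALBO and the other drugs was thus not shown.

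The alpha2delta genes CACNA2D3 and CACNA2D1 also rose. CACNA2D3 measured 7.22, 8.07 and 8.32 in WT_PALBO, against 5.91, 6.27 and 7.19 in WT_DMSO. The lowest WT_PALBO array barely cleared the highest WT_DMSO array, while within the runs the difference was 1.31, 1.81 and 1.12. It was 1.41 (SE 0.36, adjusted p = 0.0187), and the call was lost without WT_DMSO replicate 1 or 2 or WT_PALBO replicate 2 or 3 (adjusted p from 0.0723 to 0.103). This SE rests on all groups, while the SDs here were 0.67 in WT_DMSO and 0.58 in WT_PALBO. In a fit on the arrays of these groups alone the call was lost too (adjusted p = 0.0906), while the replicate block kept it. CACNA2D1 measured 11.60, 11.71 and 11.53 in WT_PALBO, against 11.19, 11.28 and 11.38 in WT_DMSO. The groups were apart, with a difference of 0.33 (SE 0.08, adjusted p = 0.0146), lost without WT_DMSO replicate 1 (adjusted p = 0.0789) or WT_PALBO replicate 2 (adjusted p = 0.0812). Over WT_AG494 and WT_NOSCA the CACNA2D3 differences were 1.02 and 1.13 and did not pass (adjusted p = 0.158 and 0.112, and 0.00252 and 0.00125 with the block).

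Over WT_AG494 3 of 37 channel genes were called (8.11%), 2 higher and 1 lower, beside 3.25% of all genes (1.2% higher and 2.05% lower). Over WT_NOSCA 4 were called (10.8%), 3 higher and 1 lower, beside 3.23% of all genes (1.13% higher and 2.1% lower). With the replicate block the counts were 7 and 8, beside 8.7% and 7.23% of all genes. Beside CACNA2D3 and SCN3A, given above, the block added CACNG4 (0.27, adjusted p = 0.0191, and 0.051 without it) and the beta subunit gene SCN3B (0.34, adjusted p = 0.00693, and 0.345 without it) over WT_AG494. Over WT_NOSCA, beside CACNA2D3, it added CACNB2 (-0.42, adjusted p = 0.00372, and 0.0756 without it), CACNA2D1 (0.25, adjusted p = 0.0175, and 0.112 without it) and CACNA1D (0.44, adjusted p = 0.0395, and 0.332 without it). CACNA1B, CACNB1 and SCN4B passed against all 3 other WT groups. The comparisons of PALBO share the WT_PALBO arrays, and that with WT_DMSO shares the WT_DMSO arrays with the comparison of the lines.

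**Figure D4:**
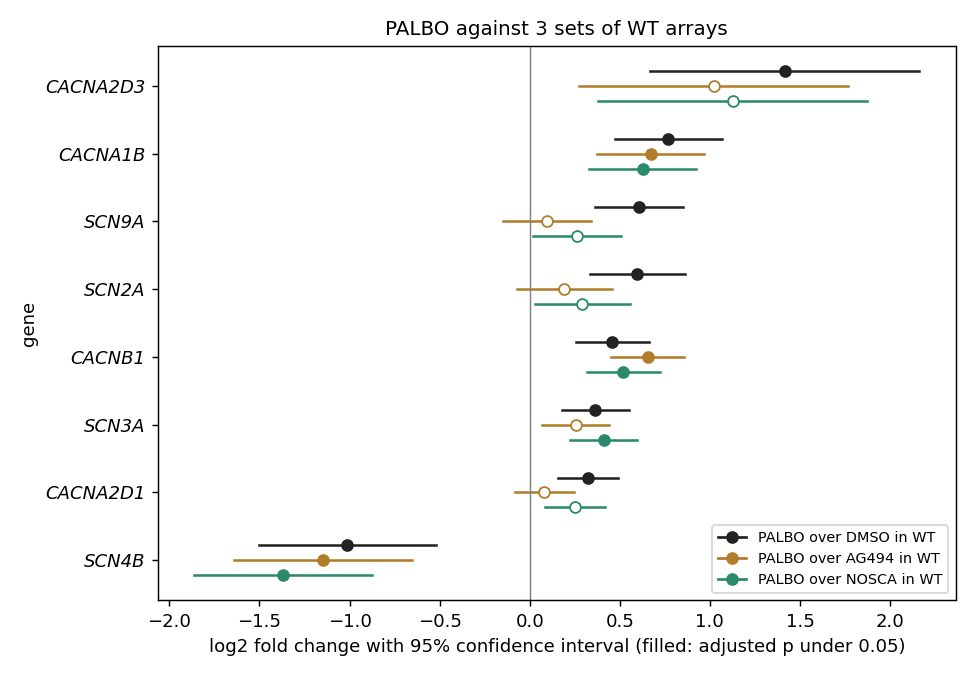
Difference in log2 intensity of WT_PALBO over WT_DMSO, WT_AG494 and WT_NOSCA for channel genes called in any of these comparisons, with 95% intervals. Filled points mark an adjusted p below 0.05, while the intervals are not adjusted. CACNA1B, CACNB1 and SCN4B passed the adjusted p in all 3, and SCN9A and SCN2A lie at 0.10 and 0.19 over WT_AG494.

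Other genes of these cells were counted under PALBO too, where 6.98% of all genes were called (15.1% with the replicate block). Of 12 proliferation genes 10 were lower in WT_PALBO than in WT_DMSO, and their mean level was 10.59 to 10.67 on the WT_PALBO arrays, against 11.13 to 11.29 on the WT_DMSO arrays. Of 16 neuronal differentiation genes 1 was higher, near the share of all genes, and 9 were higher with the replicate block. Their median difference was 0.19, and their mean level was 11.28 to 11.39 in WT_PALBO, against 10.98 to 11.24 in WT_DMSO. Of 17 noradrenergic neuroblast genes 3 were higher and 0 lower in WT_PALBO, and of 12 mesenchymal genes 0 were higher and 4 lower (1 and 5 with the block). The part of these genes in the channel differences was not tested.

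AG494 in APP cells went with lower intensities of 2 channel genes, the gamma gene CACNG4 and the beta gene CACNB1. These were 5.41% of the 37 genes, both lower, beside 4.75% of all genes (1.99% higher and 2.76% lower). CACNG4 measured 10.85, 10.96 and 10.90 in APP_AG494, against 11.32, 11.43 and 11.46 in APP_DMSO. The APP_AG494 arrays were the lowest of all groups. It fell by 0.50 (SE 0.07, 95% interval -0.65 to -0.35, adjusted p = 0.000482), with differences of -0.47, -0.47 and -0.56 in the 3 runs, and leaving out any 1 array kept the call.

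CACNB1 measured 8.67, 8.64 and 8.56 in APP_AG494, against 8.99, 9.11 and 8.82 in APP_DMSO. The groups were apart, and CACNB1 fell by 0.35 (SE 0.10, adjusted p = 0.0435, and 0.00916 with the block). The call was lost without any 1 of 5 of the 6 arrays (adjusted p from 0.0665 to 0.174), the exception being APP_DMSO replicate 3. With the block 4 channel genes were called (11.8% of all genes), the added ones being SCN9A (0.35, adjusted p = 0.0259, and 0.109 without the block) and CACNG7, an AMPA receptor partner (0.22, adjusted p = 0.0364, and 0.376 without the block). SCN4B measured 7.34, 7.27 and 7.24 in APP_AG494, against 6.78, 6.81 and 6.80 in APP_DMSO. These groups were apart too, but SCN4B was not called with or without the block. Its SDs were 0.02 in APP_DMSO and 0.05 in APP_AG494, while the test rests on the spread of all groups. Among these, the SDs were 0.69 in WT_DMSO and 0.46 in WT_NOSCA.

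**Figure D5:**
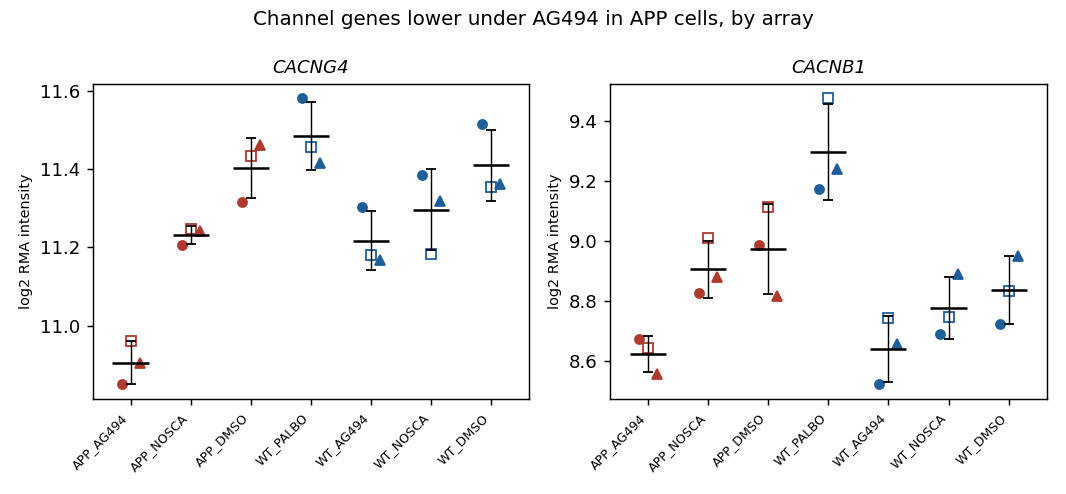
Log2 intensity on each array of CACNG4 and CACNB1, with symbols as in the plot of line differences. In CACNG4 the APP_AG494 arrays lie between 10.85 and 10.96, below all others.

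In WT cells AG494 gave no call among the 37 genes in limma (2 called with the block), beside 0.254% of all genes (1.97% with the block). At an unadjusted p below 0.05 there were 6 of 37 (16.2%), against 8.13% of all genes. CACNG4 measured 11.30, 11.18 and 11.17 in WT_AG494, against 11.51, 11.35 and 11.36 in WT_DMSO, a difference of -0.19 that did not pass (adjusted p = 0.412). The AG494 effect on CACNG4 in APP cells minus that in WT cells was -0.31 (SE 0.10, 95% interval -0.52 to -0.09), with an adjusted p of 0.37 over all genes, so that a difference between the lines was not shown. The genes called with the block in WT cells were SCN9A (0.51, adjusted p = 0.011, and 0.0842 without the block) and SCN2A (0.41, adjusted p = 0.0435, and 0.252 without the block). Leaving out WT_DMSO replicate 3 gave 1 call without the block, SCN9A (0.63, adjusted p = 0.0242). None of the 37 genes was called in the AG494 interaction (0 with the block), beside 0.0386% of all genes (1.26% with the block), and 2 had an unadjusted p below 0.05 (5.41%, against 7.53% of all genes).

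Beside the AG494 differences in APP cells, 10 of 12 proliferation genes were lower in APP_AG494, with a mean level of 10.57 to 10.65 on its arrays, against 11.07 to 11.17 on the APP_DMSO arrays. Of 16 neuronal differentiation genes 3 were lower (6 with the replicate block), beside 4.75% of all genes called (11.8% with the block). Their part in the channel differences was not tested.

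NOSCA gave no call among the channel genes in either line in limma, with or without the block, beside 0% of all genes called in APP cells and 0.0165% in WT cells (0.0276% and 0.419% with the block). At an unadjusted p below 0.05 there were 3 of 37 in APP cells (8.11%, against 5.29% of all genes) and 7 in WT cells (18.9%, against 6.91% of all genes). The largest difference had a size of 0.37 in APP cells and 0.36 in WT cells. SCN9A differed by 0.35 in WT cells (95% interval 0.10 to 0.59, adjusted p = 0.498) and by 0.10 in APP cells (95% interval -0.15 to 0.34, adjusted p = 1). The NOSCA interaction gave no call either (0 with the block), beside 0% of all genes (0.0165% with the block), and 5 had an unadjusted p below 0.05 (13.5%, against 4.94% of all genes).

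Genes that act with these channels were counted in the same way, beside 9.25% of all genes called in APP_DMSO over WT_DMSO (17.4% with the replicate block). Of 24 measured regulators of calcium channels, 2 were lower in APP_DMSO and 0 higher, and with the block 4 were lower and 2 higher. The 2 were PRNP, the prion protein, which binds alpha2delta subunits (-1.62, adjusted p = 1.35e-06), and RIMBP2, which ties calcium channels to release sites (-1.06, adjusted p = 6.68e-06). Of 25 regulators of sodium channels, 3 were higher and 3 lower, and with the block 3 were higher and 6 lower. Higher were ANK3, the scaffold of the axon initial segment (0.79, adjusted p = 0.031), and the adhesion genes CNTN2 (0.76, adjusted p = 0.00521) and CNTN1 (0.58, adjusted p = 0.000776). Among the lower ones was REST, a repressor of neuronal genes with sodium channel genes among its known targets (-0.55, adjusted p = 0.00138). The part of REST in the channel differences was not tested. The median differences of these lists were -0.09 and 0.05, against 0.02 over all genes.

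Genes of calcium removal and buffering were called in both directions. Of 20 measured, 4 were higher and 4 lower in APP_DMSO, and with the block 4 were higher and 8 lower. Among the called genes were the sodium-calcium exchanger SLC8A3 (-2.75, adjusted p = 0.00055), the buffer CALB1 (-2.72, adjusted p = 1.37e-10) and the plasma membrane calcium pump ATP2B3 (1.30, adjusted p = 0.000844). Of 33 other cation channels, 5 were higher and 3 lower (5 and 5 with the block), such as the pacemaker channel HCN4 (0.71, adjusted p = 0.00161) and the calcium release channels ITPR3 (0.55, adjusted p = 0.00761) and ITPR1 (-0.55, adjusted p = 0.0305).

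Under PALBO in WT cells, where 6.98% of all genes were called (15.1% with the block), 1 of 24 calcium channel regulators was higher and 0 lower, and with the block 5 were higher and 1 lower. The 1 was the release protein STX1A (0.39, adjusted p = 0.0484). Of 25 sodium channel regulators 3 were higher and 3 lower (4 and 5 with the block). Higher were NFASC, which anchors sodium channels at initial segments and nodes (0.92, adjusted p = 1.35e-05), FGF14, which binds the tail of the pore (0.85, adjusted p = 0.000357), and CNTN2 (0.81, adjusted p = 0.00412). NEDD4, of a ubiquitin ligase family that removes sodium channels from the membrane, was lower (-0.76, adjusted p = 1.72e-05). Of 20 genes of calcium removal and buffering 4 were higher, ATP2B3 among them (0.94, adjusted p = 0.0155), and 2 lower, CALB1 among them (-0.89, adjusted p = 0.000362). Of 33 other cation channels 2 were higher and 0 lower (3 and 2 with the block). The 2 were UNC79 of the sodium leak channel complex (0.48, adjusted p = 0.00225) and the store-operated channel ORAI3 (0.30, adjusted p = 0.0329).

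Under AG494 in APP cells, where 4.75% of all genes were called (11.8% with the block), 2 of 24 calcium channel regulators were lower and 0 higher, and with the block 3 were lower and 1 higher. The 2 were CACHD1, a relative of the alpha2delta subunits (-0.53, adjusted p = 0.00648), and SNAP25 of the release machinery (-0.22, adjusted p = 0.0341). Of 25 sodium channel regulators FGF14 was higher (0.45, adjusted p = 0.0458) and CNTN1 lower (-0.37, adjusted p = 0.0423), and with the block 2 were higher and 4 lower. These lists were chosen with earlier results of the same arrays known, and the counts describe them only.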

How the data were processed

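Total RNA (25 ng) of each of 21 SH-SY5Y samples was amplified and hybridised to PrimeView arrays, per the labels' protocols. The submitters' processing notes name RMA and affy, with no versions, as the tools by which the authors made the deposited log2 intensities, and these were used unchanged. They ran from 4.143 to 14.37. They carry no count or detection call.

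Of 49372 probe sets, 79 were controls, 1832 had several gene symbols and 2473 were not listed in the annotation; 44988 had 1 symbol, and Entrez IDs tied 44961 of these to RefSeq. Each of 18132 genes was read by its probe set of highest mean. No dim gene was left out.

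Groups came from the labels. limma 3.58.1 in R 4.3.3 was fitted to all 21 arrays, with 1 coefficient per group (14 residual and 4.27 prior degrees of freedom) and 13 contrasts. Two-sided p-values were adjusted over all genes of a contrast by the method of Benjamini and Hochberg (threshold 0.05). Intervals are 95% intervals of a single gene, not adjusted. The fit was tested on simulated data with 200 changed genes. The main fit had no replicate block. Deviations from group means correlated between arrays of 1 title run (63 pairs, 0.226 to 0.685) and less between arrays of different runs and groups (126 pairs, -0.529 to 0.0889), so the runs pair the arrays, and blocked values stand beside the channel genes' calls they change and beside counts they move by more than 1.5 times. P-values set a difference of group means against the spread between arrays of a group, which the fit shared over all groups.

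The named genes are the channel genes called in a comparison or called only with the block, those named for their level or small range, and up to 4 called genes of each partner list, which hold 28, 26, 35 and 21 genes in all. Members and lists were chosen with earlier results of these data known. Promoters came from RefSeq (GRCh38.p14), with 25 of 37 genes matched. Alternatives were the block, all probe sets or their mean, leaving out the dimmest 33.3% of genes, quantile normalisation, median centring, array weights, a prior that was trended and robust, leaving out each array, a minimum fold of 1.5, and only the groups compared.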

Additional observations from a re-analysis of the deposited data

How the results depend on the processing

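None of the 42 calls of a channel gene turned its direction in 736 recomputations: 621 kept the call and 115 lost it, and 14 of the 42 calls were kept in every setting, among them CACNA2D3 and SCN9A in all comparisons of the lines. With the title run as a replicate block the counts of called genes were 7 for APP_AG494 over WT_AG494 (4 without it), 2 for AG494 in WT cells (0), 4 for AG494 in APP cells (2), 7 for PALBO over AG494 (3) and 8 for PALBO over NOSCA (4). The block changed no call to a loss. Array weights gave 7 for APP_AG494 over WT_AG494 and 4 for AG494 in APP cells, and the mean of the probe sets of a gene gave 5 for PALBO over AG494. A fold of at least 1.5 left 2 of 4 calls for APP_AG494 over WT_AG494, 3 of 6 for APP_NOSCA over WT_NOSCA, 3 of 9 for the averaged comparison, 5 of 8 for PALBO over DMSO, 0 of 2 for AG494 in APP cells and 2 of 4 for PALBO over NOSCA. With only the groups compared in the fit, and so fewer arrays for the spread, the counts were 2, 3, 2 and 1 for APP_AG494 over WT_AG494, APP_NOSCA over WT_NOSCA, PALBO over DMSO and PALBO over NOSCA. For AG494 in APP cells, quantile normalisation, median centring, the trended and robust prior and each probe set on its own left 1 of 2 calls, CACNG4. The share of all genes called is given only for the main fit and the replicate block. Under the other settings a change in calls over all genes cannot be told apart from one in the channel genes. The cause of these shifts was not tested. Quantile normalisation and median centring moved the median of all genes by at most 0.07.

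Leaving out each array in turn gave 5 to 8 calls for APP_DMSO over WT_DMSO, 2 to 5 for APP_AG494 over WT_AG494 (2 without WT_AG494 replicate 1), 3 to 6 for APP_NOSCA over WT_NOSCA (3 without WT_NOSCA replicate 2) and 7 to 9 for the averaged comparison. It gave 5 to 8 for PALBO over DMSO (5 without WT_DMSO replicate 1 or 2 or WT_PALBO replicate 3), 1 to 4 for PALBO over AG494 and 2 to 6 for PALBO over NOSCA (1 and 2 without WT_PALBO replicate 3), and 1 to 2 for AG494 in APP cells (1 without any 1 array other than APP_DMSO replicate 3). It gave 0 to 1 for AG494 in WT cells (1 without WT_DMSO replicate 3) and 0 to 0 for NOSCA in either line and for both interactions. These counts too stand without the share of all genes called on leaving out the same array. With 3 arrays a group, small differences of the 14 dim genes are the least certain.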

Other observations

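CACNA1D and CACNA2D3, both higher in APP cells, lie on chromosome 3 with 4 coding genes between them in RefSeq's order. In APP_DMSO over WT_DMSO the differences of these 4 were 0.67 for CHDH, a choline dehydrogenase (adjusted p = 0.00282), 0.89 for the interleukin receptor IL17RB (adjusted p = 1.72e-05), 0.28 for ACTR8, a chromatin remodelling subunit (adjusted p = 0.0116), and 0.03 for SELENOK (adjusted p = 0.918). Averaged over the treatments they were 0.51 for CHDH (adjusted p = 7.32e-05), 0.75 for IL17RB (adjusted p = 3.89e-08), 0.24 for ACTR8 (adjusted p = 0.000127) and 0.03 for SELENOK (adjusted p = 0.733). Under PALBO in WT cells, where CACNA2D3 rose, none of the 4 was called, with differences of -0.03 for CHDH, 0.11 for IL17RB, 0.19 for ACTR8 and 0.10 for SELENOK. These genes were looked at after the values of CACNA1D and CACNA2D3 had been seen.

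SCN2A and SCN9A, also higher in APP cells, lie on chromosome 2 among SCN3A, SCN1A and SCN7A. Of the 4 coding genes between SCN2A and SCN1A, 3 were measured. CSRNP3 was lower in APP cells in the averaged comparison (-0.35, adjusted p = 0.00188), and GALNT3 and TTC21B differed by 0.08 and 0.04 without being called.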
